A study of Mus musculus with 6 samples.

Results

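The 9 genes described here serve the making of immunoglobulin A (IgA), its passage across epithelia and the homing of the cells that secrete it: *Igha*, *Jchain*, *Pigr*, *Ccr10*, *Ccl28*, *Itgb7*, *Madcam1*, *Ccr9* and *Ccl25*. They were chosen by name for these known roles, and all 9 were found among the 20076 genes of the deposited expression table. Bulk RNA-seq of primary tumors was compared between wild-type (WT) C57BL/6 mice and mice lacking *Tgm2*, which encodes tissue transglutaminase, an enzyme that crosslinks proteins, with 3 tumors in each group. In both groups the same ID8 *Trp53*-/- *Brca1*-/- cancer cells, a mouse ovarian surface epithelial line with both tumor suppressor genes deleted, had been injected into both ovarian bursae of mice aged 6 to 10 weeks, and tumors were taken 6 weeks later. The knockout was therefore a property of the host, while the cancer cells kept *Tgm2* in both groups.

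IgA is made by plasma cells whose heavy chain locus has recombined so that the alpha constant region, encoded by *Igha*, replaces the mu region of IgM. The J chain links IgA or IgM monomers into polymers, and the polymeric immunoglobulin receptor, encoded by *Pigr*, carries these polymers through epithelial cells into secretions, including those of the female reproductive tract. Mucosal homing rests on pairs of ligand and receptor: the chemokine CCL28 made by epithelia and its receptor CCR10 on IgA plasma cells, CCL25 and CCR9, and the addressin MAdCAM-1 of venules and the integrin alpha4 beta7, of which *Itgb7* encodes the beta chain.

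The values are normalized counts: estimated reads per gene divided by a size factor for each tumor, so that tumors can be compared gene by gene. From the smallest steps between low values, the depth was estimated at 37100000, 34400000 and 33300000 reads for WT tumors 1 to 3 and at 34400000, 36800000 and 34500000 for knockout tumors 1 to 3, and 1 read was worth between 0.938 and 1.094 normalized counts. Depth therefore differed little between tumors, and a normalized count stood for about 1 read in each of them. *Tgm2* itself stood at 14978, 12155 and 13180 normalized counts in tumors of WT mice and at 5853, 6071 and 8157 in those of knockout mice. The groups did not overlap and were ordered as labelled, although the log2 fold change of -1.02 (SE 0.22) had an adjusted p of 0.391 in limma. The labels give cancer cells as the cell type, but the libraries also held leukocyte transcripts such as *Ptprc* (CD45), at 1583 to 3173 normalized counts, so the values describe whole tumor tissue. WT tumor 3 stood apart in some genes of glandular epithelium: *Epcam* was at 90.5, 959 and 8047 in tumors of WT mice and at 1307, 1063 and 201.2 in those of knockout mice. Where WT tumor 3 alone set a fold change or an order of levels, the value without it is given as well.

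Tumors from *Tgm2* knockout mice held far more transcript of the polymeric IgA chains than those from WT mice. *Igha* was 44.8-fold and *Jchain* 27.9-fold higher, and both were higher in each knockout tumor than in any WT tumor. None of the other 7 genes, which serve transport and homing, passed the test. A gene was called at a limma adjusted p below 0.05 over all 19667 genes tested together with an absolute log2 fold change above 1. By this rule 2 of the 9 genes were called higher, where 0.102% of all genes were called in either direction, all of them higher. None of the 9 was called lower in limma (0% of all genes were). At an unadjusted p below 0.05, a level that 5.78% of all genes reached, 3 of the 9 were higher (*Igha*, *Jchain* and *Ccr10*; 3.4% of all genes) and none was lower (2.38% of all genes). Without WT tumor 1 these counts were 4 higher, with *Itgb7* added, and 2 lower, *Pigr* and *Ccl28*, where 4.46% of all genes were higher and 3.2% lower in that fit. The median log2 fold change of the 9 genes was -0.10, beside -0.03 over all genes, and it turned to 0.70 without WT tumor 3 and to 0.25 without knockout tumor 1.

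**Figure D1:**
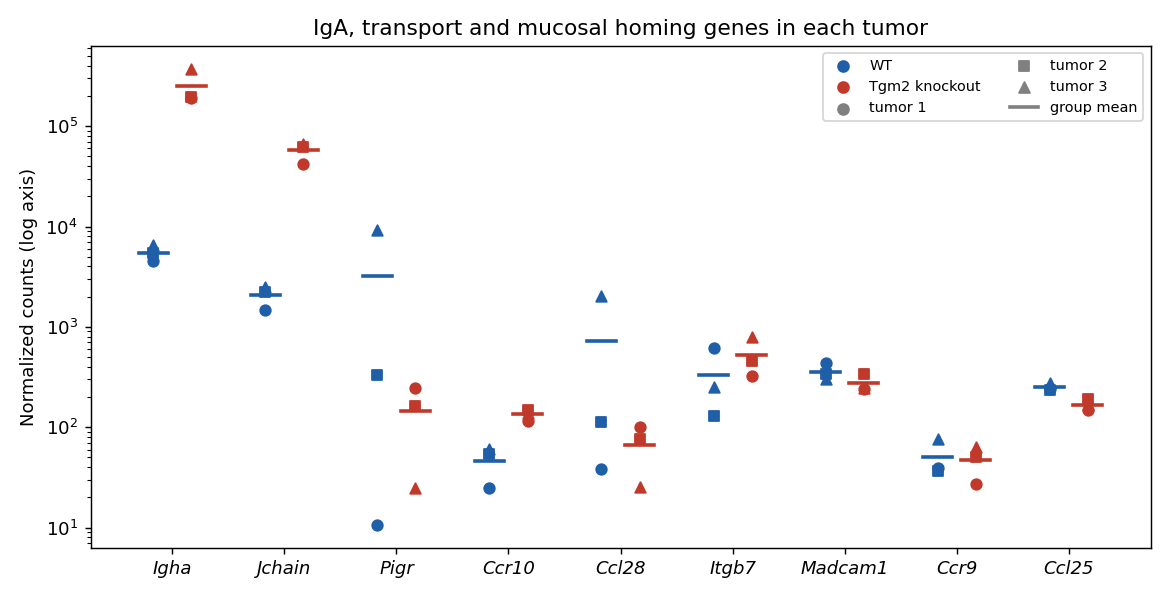
Normalized counts (log axis) of the 9 genes in each of the 6 tumors, with WT in blue, Tgm2 knockout in red, a symbol for each tumor number and a line for each group mean. Igha and Jchain separate the groups by more than the spread within them, whereas Pigr runs from 10.6 to 9321 within the WT group alone.

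Among the chains of polymeric IgA, *Igha* (chr12:113254830-113260236, minus strand, GRCm38) stood at 4495, 5408 and 6483 normalized counts in the WT tumors, in the order of their numbers. In the knockout tumors it was at 192147, 197269 and 373965. The lowest knockout tumor thus lay far above the highest WT tumor, and knockout tumor 3 was the highest of all. Group means were 5462 ± 995 (SD, n = 3) and 254460 ± 103526 (SD, n = 3). The log2 fold change was 5.49 (SE 0.36, 95% interval 4.67 to 6.30) with an adjusted p of 0.00124 in limma, and over all alternative settings the adjusted p ran from 0.000467 to 0.283. The call was lost without WT tumor 2 (log2 fold change 5.49, adjusted p 0.0515) and when the mean level of white adipocyte genes entered the model as a covariate (5.38, adjusted p 0.283). Those fat cell markers were themselves higher in the knockout tumors, with a mean log2 value of 9.87, 10.52 and 9.71 in WT tumors and 11.02, 12.76 and 12.07 in knockout tumors. Their part in the result was not tested beyond this covariate. In bulk tissue, more cells of a type and more RNA per cell cannot be told apart.

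*Jchain* (chr5:88519809-88527891, minus strand) was at 1461, 2231 and 2511 normalized counts in the WT tumors. It reached 42273, 62782 and 67245 in the knockout tumors. Here too the groups were far apart, with the lowest value of each group in its tumor 1. The means were 2068 ± 544 (SD, n = 3) and 57433 ± 13317 (SD, n = 3), which gave a log2 fold change of 4.80 (SE 0.29, 95% interval 4.15 to 5.46) and a limma adjusted p of 0.000989. *Jchain* stayed called in all 6 fits that left out a tumor, with log2 fold changes of 4.57 to 5.01. With the adipocyte covariate it had a log2 fold change of 4.21 and an adjusted p of 0.283, and the adjusted p ran from 0.000345 to 0.283 over all settings.

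The place of these transcripts in the whole profile differed between the groups. Genes of different length were ranked by normalized counts per kilobase of exon, with the exons of all annotated transcripts of a gene merged. *Igha* was number 1088, 993 and 630 of 19037 genes in WT tumors and number 14, 15 and 5 in knockout tumors. *Jchain* was at ranks 3329, 2282 and 1731 in WT tumors and at ranks 75, 74 and 64 in knockout tumors. As a share of all normalized counts, *Igha* took 0.0129%, 0.0153% and 0.0191% in tumors of WT mice and 0.595%, 0.551% and 0.991% in those of knockout mice.

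The sequence that joins these chains can be read at the end of the secreted heavy chains. IgA and IgM carry a tailpiece whose penultimate codon encodes the cysteine that bonds to the J chain, and IgG lacks it. The last 60 coding bases before the stop codon of the secreted transcripts are given 5′ to 3′ on the minus strand of GRCm38, from the GENCODE M21 transcripts, with that cysteine codon in capitals: chr12:113258771-113258830 for *Igha*, chr12:113420870-113420929 for *Ighm* and chr12:113287392-113287451 for *Ighg2c*, an IgG gene shown for contrast.
Igha: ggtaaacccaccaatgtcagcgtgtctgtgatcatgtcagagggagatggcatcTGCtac
Ighm: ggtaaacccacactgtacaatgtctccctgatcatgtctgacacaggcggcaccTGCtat
Ighg2c: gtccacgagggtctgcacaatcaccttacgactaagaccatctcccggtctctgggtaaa
The alpha and mu ends share the codon at the same place, and the gamma end has no such codon there. *Jchain* thus belongs to the products of both *Igha* and *Ighm*, whose values were compared next.

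*Igha* is the last of the 8 constant genes in the order of transcription on chromosome 12, after *Ighm*, *Ighd*, *Ighg3*, *Ighg1*, *Ighg2b*, *Ighg2c* and *Ighe*. In the WT tumors *Igha* made up 28.1%, 53.8% and 31.3% of the summed normalized counts of these genes. Its share in the knockout tumors was 65.3%, 64.8% and 73.3%. The groups did not overlap, but WT tumor 2 lay closer to the knockout tumors than to the other WT tumors. The means were 37.7% ± 14.0 and 67.8% ± 4.78 (SD, n = 3 each), a difference of 30.1 percentage points with an exact permutation p of 0.1, two-sided, the smallest that 3 against 3 tumors allow. Per kilobase of exon the difference was 27.8 percentage points, from 29.7% ± 12.1 to 57.5% ± 6.12.

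The counterpart of the larger IgA share was a smaller share of IgM and IgG3. *Ighm*, the constant gene used before any switch, took 42.9%, 19.1% and 12.9% in tumors of WT mice and 3.24%, 3.46% and 3.50% in those of knockout mice. *Ighg3* was at 7.44%, 4.85% and 29.7% in tumors of WT mice and at most 0.169% in those of knockout mice, below each WT tumor, also when WT tumor 3 is set aside. These are shares. The *Ighm* level itself was not lower: it was at 6869, 1926 and 2681 normalized counts in tumors of WT mice and at 9546, 10525 and 17862 in those of knockout mice (log2 fold change 1.89, adjusted p 0.542). For *Ighg3* the level was 1192, 488 and 6155 in WT tumors and 497, 234 and 569 in knockout tumors, with overlap (log2 fold change -1.92, adjusted p 0.845, unadjusted p 0.0446 in limma). Without WT tumor 3 the log2 fold change of *Ighg3* was -0.91 (adjusted p 0.967), and without WT tumor 2 it was -2.74 (adjusted p 0.831). *Igha* was not alone in being called. For *Ighg2c* the log2 fold change was 4.49 (adjusted p 0.00763) and for *Ighg2b* 4.87 (adjusted p 0.0104), while *Ighg1*, at 5.96 with an adjusted p of 0.0657, was not called. Without WT tumor 1 or without WT tumor 2, neither *Ighg2c* (adjusted p 0.0582 and 0.0667) nor *Ighg2b* (0.0720 and 0.0955) was called, and without WT tumor 3 *Ighg1* was (0.0348). The log2 fold change of *Ighg1* ran from 5.21 without knockout tumor 1 to 6.81 without WT tumor 3. Its limma adjusted p was highest without WT tumor 2, at 0.344. The constant genes of the IgG subclasses resemble each other in sequence, so reads may have been split unevenly among them in quantification.

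**Figure D2:**
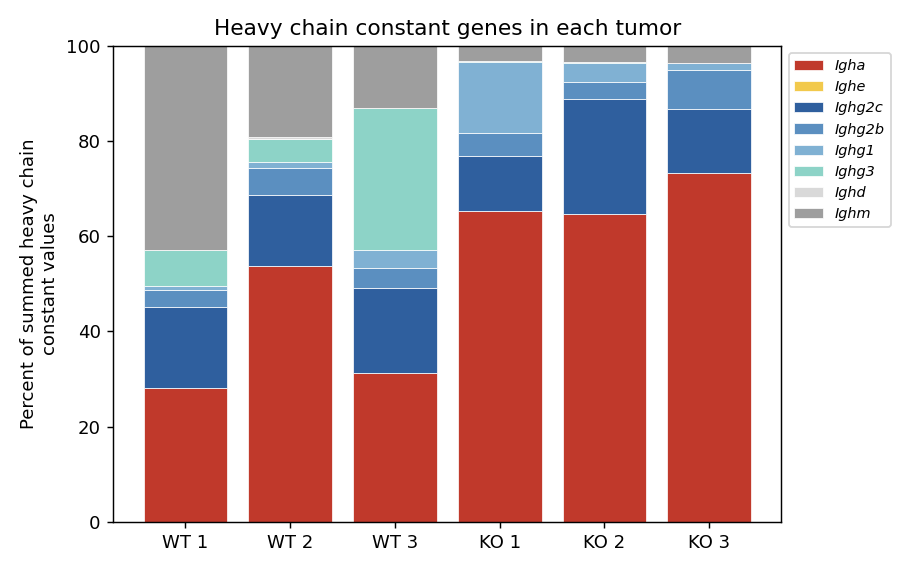
Share of each heavy chain constant gene in the summed normalized counts of the 8 constant genes, as percent, stacked to 100 for each of the 6 tumors. The Igha segment fills 64.8% to 73.3% of each knockout tumor and 28.1% to 53.8% of each WT tumor, and the Ighm segment is 3.24% to 3.50% in the knockout tumors.

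Ratios within a tumor set *Igha* against other transcripts of antibody-secreting cells. The log2 ratio of *Igha* to *Ighm* was -0.61, 1.49 and 1.27 in tumors of WT mice and 4.33, 4.23 and 4.39 in those of knockout mice, a difference of 3.60, or 12.1-fold. That difference in log2 ratio was 2.93 without WT tumor 1 and 3.98 without WT tumor 2. Against *Jchain* the log2 ratio was 1.62, 1.28 and 1.37 in tumors of WT mice and 2.18, 1.65 and 2.48 in those of knockout mice, a difference of 0.68, or 1.60-fold. Against the mean of 15 plasma cell markers the log2 ratio of *Igha* was 3.42, 3.95 and 4.06 in tumors of WT mice and 7.58, 7.58 and 8.19 in those of knockout mice, a difference of 3.98, or 15.8-fold. In all 3 ratios the groups did not overlap, and each had an exact two-sided permutation p of 0.1, the smallest possible. The difference between groups was thus smallest when *Igha* was set against *Jchain*. The plasma cell list holds genes that other cells also use, such as *Xbp1*, a regulator of secretory capacity, and *Sdc1*, a surface proteoglycan of plasma cells and epithelia, at log2 fold changes of 0.51 and -0.13. Its 2 called genes lay nearer to *Jchain*: *Mzb1*, a chaperone of immunoglobulin assembly, had a log2 fold change of 4.27 (limma adjusted p 0.00763), and *Pou2af1*, a B cell coactivator, one of 3.76 (adjusted p 0.0439). The call of *Mzb1* was lost without WT tumor 2 (adjusted p 0.0692), and that of *Pou2af1* on leaving out any tumor but WT tumor 3 (adjusted p up to 0.222).

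Genes outside the lists were ranked by how closely their profile over the 6 tumors followed each chain, as the root mean square difference of centred log2 values. The nearest gene to both *Igha* (0.679) and *Jchain* (0.506) was *Igkc*, the kappa light chain constant gene, at 8870, 6618 and 14622 normalized counts in tumors of WT mice and 129652, 151166 and 300054 in those of knockout mice. Next came *Ighj3* (0.726) and *Ighv1-53* (0.783) for *Igha*, and *Gm2663* (0.558) and *Ighj2* (0.586) for *Jchain*. All but *Gm2663* belong to the immunoglobulin loci. *Gm2663* was at 0, 0 and 0 normalized counts in WT tumors and at 10.4, 11.7 and 20.6 in knockout tumors. Its distance to *Jchain* therefore depends on the 1 added before the log.

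*Pigr* (chr1:130826684-130852249, plus strand), the epithelial receptor that takes up polymeric IgA, had no such pattern. Its values were 10.6, 332 and 9321 normalized counts in tumors of WT mice and 247, 161 and 24.6 in those of knockout mice. The lowest and the highest of the 6 tumors were both WT, and all knockout tumors lay between them. The log2 fold change of -1.71 (SE 2.07, 95% interval -6.44 to 3.02, adjusted p 0.920) turned to 0.70 (adjusted p 0.968) without WT tumor 3 and was -4.12 (adjusted p 0.632) without WT tumor 1. At this spread, neither a large rise nor a large fall in *Pigr* could be detected. By rank per kilobase *Pigr* was number 671 in WT tumor 3 but number 10084 and 16441 in the other WT tumors, and between 11442 and 14761 in the knockout tumors.

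*Ccl28* (chr13:119623819-119654359, plus strand), the chemokine that mucosal epithelia make for CCR10-bearing cells, had a like profile. It was at 38.4, 112 and 2030 normalized counts in tumors of WT mice and at 99.6, 75.7 and 25.5 in those of knockout mice. WT tumor 3 was again far above the rest, and the groups overlapped. The log2 fold change was -1.82 (SE 1.30, 95% interval -4.79 to 1.14, adjusted p 0.894), and it ran from -3.03 (adjusted p 0.632) without WT tumor 1 to -0.18 (adjusted p 0.986) without WT tumor 3.

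The windows from 250 bases before to 50 bases after the transcription start of *Pigr* and *Ccl28*, the pair of epithelial genes that peaked in the same tumor, are given 5′ to 3′ on the plus strand (RefSeq, GRCm38.p6), at chr1:130826434-130826733 and chr13:119623569-119623868. Capitals mark the only match in each to 5 motifs searched on both strands: the E-box CACGTG, the ETS site AGGAAGT, the octamer ATGCAAAT, the TATA box TATAAA and the interferon response pair (GAAA repeated after a gap of 2 bases).
Pigr: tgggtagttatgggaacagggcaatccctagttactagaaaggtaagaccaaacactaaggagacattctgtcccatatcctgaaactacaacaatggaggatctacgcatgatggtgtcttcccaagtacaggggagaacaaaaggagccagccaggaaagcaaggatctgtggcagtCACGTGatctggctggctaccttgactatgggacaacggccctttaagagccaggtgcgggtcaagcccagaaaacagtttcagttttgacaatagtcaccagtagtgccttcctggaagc
Ccl28: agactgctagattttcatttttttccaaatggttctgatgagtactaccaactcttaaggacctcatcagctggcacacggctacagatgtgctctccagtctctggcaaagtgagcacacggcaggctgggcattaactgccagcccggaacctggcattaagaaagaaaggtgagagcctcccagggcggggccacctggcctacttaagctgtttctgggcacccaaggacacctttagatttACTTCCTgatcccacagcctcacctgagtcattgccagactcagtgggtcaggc
In *Pigr* the E-box began 71 bases before the start, and in *Ccl28* an ETS site, read on the opposite strand, began 4 bases before it. Over the 32817 such windows in RefSeq, 7.15% held the E-box and 9.35% the ETS site, while 1.74% held the octamer, 13.6% the TATA box and 3.43% the interferon pair. The pair of windows shared none of the 5 motifs. Windows were at hand for 7 of the 9 genes, and those of *Jchain*, *Madcam1* and *Ccr9* held no match.

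Some, but not all, other epithelial genes had their highest value in WT tumor 3, as *Pigr* and *Ccl28* did. Outside the lists, the profiles nearest to *Pigr* included those of *Dlx5* (0.664), a homeobox gene, and *Slc5a1* (0.678), a glucose transporter of absorptive epithelia. *Dlx5* was at 3.97, 110 and 2658 normalized counts in tumors of WT mice and 89.8, 22.8 and 2.27 in those of knockout mice. WT tumor 3 was highest, and WT tumor 1 and knockout tumor 3 were lowest, as for *Pigr*. Over 13 general epithelial markers, all detected, the summed value was 42257, 55489 and 83132 in tumors of WT mice and 37914, 40038 and 36446 in those of knockout mice, with *Krt8*, a keratin of simple epithelia, as the most abundant by mean, although *Krt19* exceeded it in tumor 1 of each group. *Krt8* itself was highest in WT tumor 2, at 14387, 21948 and 15814 in WT tumors and 10373, 13629 and 14318 in knockout tumors. Of the 13 markers, 0 had a log2 fold change above 0 and none was called. The groups did not overlap for 3 of them, which were lower, as were 5.33% of all genes. Among these, *Cldn4* was at 665, 198 and 1881 in WT tumors and 68.2, 71.6 and 23.7 in knockout tumors (log2 fold change -3.66, limma adjusted p 0.406). Of 9 markers of oviduct and uterus, *Ovgp1*, a secreted oviduct glycoprotein, was the most abundant by mean, and the sum was 1525, 15686 and 105537 in tumors of WT mice and 47104, 65628 and 1293 in those of knockout mice. *Ovgp1* was at 184, 6552 and 9244 in WT tumors and 37108, 55944 and 91.0 in knockout tumors, and the cilia regulator *Foxj1* was likewise highest in knockout tumors 1 and 2, at 1135 and 1938. *Ltf*, the lactoferrin gene of uterine epithelium, was at 227, 3967 and 52176 in tumors of WT mice and 3718, 3910 and 31.6 in those of knockout mice. The part of these markers in the *Pigr* and *Ccl28* values was not tested beyond a covariate: with the mean of the general epithelial markers in the model, the log2 fold change of *Pigr* was 0.19 (adjusted p 0.989) and that of *Ccl28* -0.67 (adjusted p 0.950).

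Even set against *Epcam*, the *Pigr* level was uneven, since the log2 ratio was -2.97, -1.53 and 0.21 in tumors of WT mice and -2.40, -2.71 and -2.98 in those of knockout mice. For *Ccl28* the log2 ratio to *Epcam* was -1.22, -3.08 and -1.99 in tumors of WT mice and -3.70, -3.79 and -2.93 in those of knockout mice. The groups overlapped in both ratios. Knockout tumor 3 had the most *Igha* of all tumors and one of the lowest *Pigr* values, so the tumor richest in the IgA chain was not rich in its receptor. That tumor was also low in *Epcam*, at 201.2 beside 1307 and 1063 in the other knockout tumors.

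**Figure D3:**
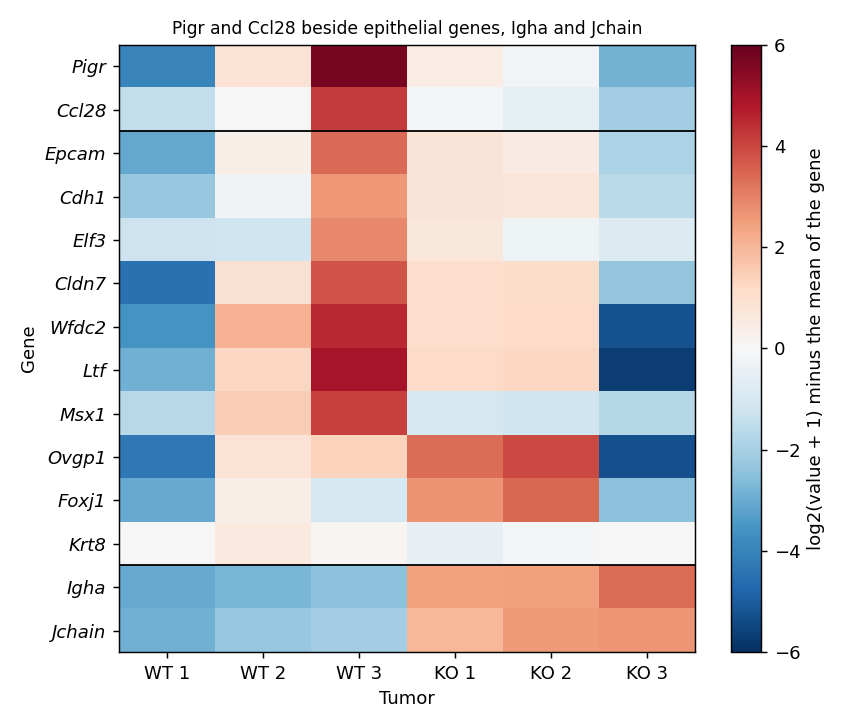
Colors give log2(value + 1) minus the mean of the gene over the 6 tumors, with genes in rows and tumors in columns, for Pigr and Ccl28 (top), 10 epithelial genes (middle) and Igha and Jchain (bottom). Pigr, Ccl28, Epcam and Ltf are highest in WT tumor 3, Ovgp1 and Foxj1 in knockout tumor 2, and Igha and Jchain are high in the 3 knockout tumors.

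*Ccr10* (chr11:101172997-101175443, minus strand), the CCL28 receptor of IgA-secreting cells, was the only homing gene among the 9 whose values did not overlap in the direction of *Igha*. It was at 24.6, 54.1 and 60.8 normalized counts in tumors of WT mice and at 116, 147 and 140 in those of knockout mice. Every knockout tumor was thus above every WT tumor, with the widest relative spread in the WT group. Means were 46.5 ± 19.3 and 135 ± 16.1 (SD, n = 3 each). The log2 fold change of 1.61 (SE 0.51, 95% interval 0.45 to 2.77), which is 3.04-fold on the scale of log2(value + 1), had a limma adjusted p of 0.714 and was not called, and it ran from 1.17 to 1.85 over the alternative settings. In all, 3 of the 9 genes (*Igha*, *Jchain* and *Ccr10*) did not overlap and were higher, where 5.18% of all genes were (10.5% in either direction), and 1 (*Ccl25*) did not overlap and was lower, where 5.33% were.

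*Ccl25* (chr8:4325210-4360020, plus strand), the ligand of CCR9 in small intestine and thymus, was at 242, 233 and 279 normalized counts in tumors of WT mice and 149, 190 and 167 in those of knockout mice. All knockout values lay below all WT values, but the distance was small. The log2 fold change was -0.58 (SE 0.31, 95% interval -1.29 to 0.14), with an adjusted p of 0.889. Its receptor *Ccr9* (chr9:123678439-123784330, plus strand) was at 39.0, 36.5 and 76.1 in tumors of WT mice and at 26.9, 51.0 and 63.9 in those of knockout mice. These overlapped throughout, and the log2 fold change of -0.10 (SE 0.59, adjusted p 0.986) changed sign under some settings, to 0.23 without WT tumor 3 and 0.25 without knockout tumor 1.

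*Itgb7* (chr15:102215995-102231944, minus strand), the beta chain of the gut-homing integrin and of the alphaE integrin of intraepithelial T cells, was at 621, 129 and 254 normalized counts in the WT tumors. In the knockout tumors it was at 322, 457 and 800. WT tumor 1 lay within the knockout range, and the log2 fold change of 0.84 (SE 0.58, 95% interval -0.48 to 2.16, adjusted p 0.891) was not called. It was 1.43 (adjusted p 0.632) without WT tumor 1 and 0.30 (adjusted p 0.959) without WT tumor 2. *Itga4*, the alpha chain that pairs with it for mucosal homing, was at 634, 325 and 519 in tumors of WT mice and at 953, 811 and 1336 in those of knockout mice. Those groups did not overlap, but the log2 fold change of 1.09 (SE 0.32) had an adjusted p of 0.649. For *Itgae*, the alternative partner, the log2 fold change was 0.89 with an adjusted p of 0.889.

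*Madcam1* (chr10:79664559-79668537, plus strand), the venule addressin bound by alpha4 beta7, was at 435, 337 and 305 normalized counts in tumors of WT mice and 243, 337 and 246 in those of knockout mice. The groups overlapped, and the log2 fold change was -0.38 (SE 0.30, 95% interval -1.06 to 0.30, adjusted p 0.897). The interval does not reach a log2 fold change of 1, so a doubling of the addressin was outside it. Its lower end, at -1.06, does reach a change of that size in the other direction, so such a fall was not outside it. *Nkx2-3*, a homeobox gene on which *Madcam1* expression in gut and spleen depends, was at 204, 54.2 and 44.6 in tumors of WT mice and 32.2, 49.1 and 59.3 in those of knockout mice, with WT tumor 1 far above the rest.

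**Figure D4:**
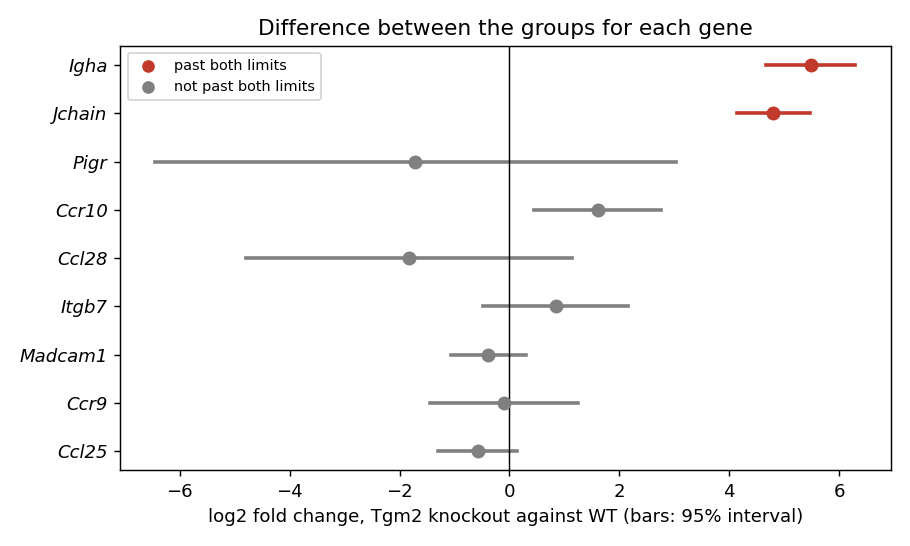
Log2 fold change of each of the 9 genes, knockout against WT, from limma on log2(value + 1), with bars for the 95% interval and red for genes past both limits. Igha and Jchain lie above 4, Ccr10 has an interval of 0.45 to 2.77 without passing the adjusted test, and the intervals of Pigr and Ccl28 are the widest.

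Between genes, levels were ordered by normalized counts per kilobase of exon. The order thus also depends on the merged length of all annotated exons, which is long for *Ccr9* (10260 bases) and *Ccl25* (7445 bases). *Ccr10* had 1726 bases, and its mean in the WT tumors was 46.5 normalized counts, beside 50.6 for *Ccr9*. In the WT tumors the order of mean levels was *Igha* (2047 ± 373), *Jchain* (821 ± 216), *Pigr* (800 ± 1313), *Madcam1* (250 ± 47.2), *Ccl28* (150 ± 233), *Itgb7* (121 ± 92.3), *Ccl25* (33.7 ± 3.28), *Ccr10* (27.0 ± 11.2) and *Ccr9* (4.93 ± 2.16; SD, n = 3). Neighbours in this order overlapped except *Igha* and *Jchain*, *Itgb7* and *Ccl25*, and *Ccr10* and *Ccr9*. In the knockout tumors the order was *Igha* (95375 ± 38803), *Jchain* (22818 ± 5291), *Madcam1* (192 ± 37.0), *Itgb7* (190 ± 88.9), *Ccr10* (78.0 ± 9.33), *Pigr* (35.8 ± 27.8), *Ccl25* (22.6 ± 2.80), *Ccl28* (13.8 ± 7.81) and *Ccr9* (4.61 ± 1.83). Here *Igha* and *Jchain*, *Jchain* and *Madcam1*, *Itgb7* and *Ccr10*, and *Ccr10* and *Pigr* did not overlap. *Ccr10* and *Itgb7*, receptors on the migrating cells, thus stood above *Pigr* and *Ccl28* in the knockout tumors and below them in the mean of the 3 WT tumors. Without WT tumor 3 the WT order turned: *Pigr* (42.6 ± 56.4) and *Ccl28* (15.6 ± 10.8) lay below *Itgb7* (135 ± 126), and *Ccl28* also lay below *Ccr10* (22.8 ± 12.1; SD, n = 2).

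The wider pathways around the 9 genes were described from lists of textbook members, and their counts stand beside those of all genes, of which 0.102% were called, 3.4% were higher at an unadjusted p below 0.05 and 2.38% were lower at that level. Of 25 genes of IgA class switching tested, limma called none, 4 had an unadjusted p below 0.05 and were higher, and the median log2 fold change was 0.21. Those 4 were *Tnfrsf17* (BCMA) and *Tnfrsf13b* (TACI), receptors of plasma cell survival factors, *Il21*, a helper T cell cytokine, and *Nos2*, the inducible nitric oxide synthase, at 2.24, 1.20, 2.67 and 1.52. Few reads lay behind *Il21*, at 0, 0 and 0.96 normalized counts in WT tumors and 3.91, 7.43 and 11.2 in knockout tumors. *Tnfrsf17* was likewise low in WT tumors, at 1.88, 7.26 and 7.12, beside 20.8, 16.7 and 52.2 in knockout tumors. *Tgfb1*, whose product directs switching to IgA, stood at a log2 fold change of 0.07 with an adjusted p of 0.985.

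Of 14 genes of retinoic acid synthesis and response, a signal that imprints gut homing, none was called in limma, 3 had an unadjusted p below 0.05 and were higher (*Aldh1a1* 1.02, *Aldh1a3* 0.88 and *Rxra* 0.71), and the median was 0.40, or -0.07 without knockout tumor 1. *Aldh1a2*, the synthesis enzyme of mucosal dendritic cells, was at 1169, 910 and 353 in tumors of WT mice and 1414, 558 and 545 in those of knockout mice, with overlap. Of 6 other receptors of polymeric immunoglobulin or IgA, none was called in limma, and *Tfrc*, the transferrin receptor, which can bind polymeric IgA, had a log2 fold change of -0.67 with an adjusted p of 0.819 and an unadjusted p below 0.05. Of 29 further homing genes, none was called in limma, 7 had an unadjusted p below 0.05 and were higher and 1 was lower, and the median was 0.79. For *Cxcr4* and *Cxcl12*, the receptor and ligand that hold plasma cells in bone marrow, the log2 fold changes were 0.32 and 0.03.

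Markers of cells that could carry the 9 genes were set beside the same shares of all genes, of which 0.102% were called and 5.18% did not overlap and were higher. Of 15 plasma cell markers, 2 were called higher (*Mzb1* and *Pou2af1*), 12 did not overlap and were higher, and the median was 0.92. Of 14 B cell markers, 1 (*Cd79a*, log2 fold change 3.01, limma adjusted p 0.0264) was called higher, a call lost on leaving out any tumor (adjusted p 0.0638 to 0.161), and the median was 0.80. Of 7 markers of B-1 cells, innate-like B cells that are a source of peritoneal IgA, none was called or had an unadjusted p below 0.05, with a median of 0.21. The most abundant of them, *Itgam* and *Spn* (means of 1662 and 1304 over all tumors), are also used by other leukocytes. In whole tumor tissue this list therefore does not measure B-1 cells alone. Gut epithelium is a tissue that makes *Pigr* and *Ccl25*. Of 11 gut epithelium markers listed, *Cdx1*, *Cdx2* and *Tff3* were absent from the deposited values. The 8 tested summed to 625, 183 and 649 normalized counts in tumors of WT mice and 1460, 550 and 374 in those of knockout mice. The stem cell gene *Lgr5*, also expressed in ovary, was the most abundant in the mean over the tumors. In knockout tumor 1 *Apoa4*, an enterocyte apolipoprotein gene, was higher (794) than *Lgr5* (496), while in the other tumors *Apoa4* was at 45.4 or below. *Fabp2*, another enterocyte gene, was at 3.12 or below in each tumor. None of the 8 was called, 5 had a log2 fold change above 0, and the median was 0.24. That median was -0.46 without knockout tumor 1, -0.03 without knockout tumor 2 and -0.09 without WT tumor 2. Below 0 were *Vil1* (-1.39), *Reg3g* (-0.74) and *Muc2* (-2.16, limma adjusted p 0.851). Only *Muc2* had an unadjusted p below 0.05, where 2.38% of all genes were lower at that level. The 9 markers of high endothelial venules and lymph node stroma tested summed to 3728, 2340 and 3266 in WT tumors and 3728, 2542 and 2561 in knockout tumors, with the chemokine gene *Ccl21a* as the most abundant by mean and none at 0 in any tumor. The medians were 0.77 for T cell, 0.50 for general leukocyte, 0.11 for mesothelial, -0.38 for thymic epithelial, -0.43 for general epithelial and -0.79 for oviduct and uterine markers. Without WT tumor 3 the oviduct and uterine median turned to 0.52, the mesothelial one to -0.16, and the general epithelial one was -0.06. The oviduct and uterine median was also above 0 without knockout tumor 3 (0.08), the mesothelial one was below 0 without knockout tumor 2 (-0.03), and the B-1 median was below 0 without WT tumor 2 (-0.09). In the other direction, the oviduct and uterine median moved to -1.99 without WT tumor 1 and -1.35 without WT tumor 2. The general epithelial one moved to -1.26 without WT tumor 1. Of the cell type lists, white adipocyte markers had the median furthest from 0 in the fit with all tumors: 1 of the 15 (*Lep*, the leptin gene, log2 fold change 3.74, adjusted p 0.0393) was called, a call also lost on leaving out any tumor (adjusted p 0.0532 to 0.284), 14 were higher at an unadjusted p below 0.05 (3.4% of all genes), and the median was 1.95. That is the list whose mean, as a covariate, ended the calls of *Igha* and *Jchain*. With it the log2 fold changes were 5.38 (SE 0.69) and 4.21 (SE 0.51). Without it they were 5.49 (SE 0.36) and 4.80 (SE 0.29).

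**Figure D5:**
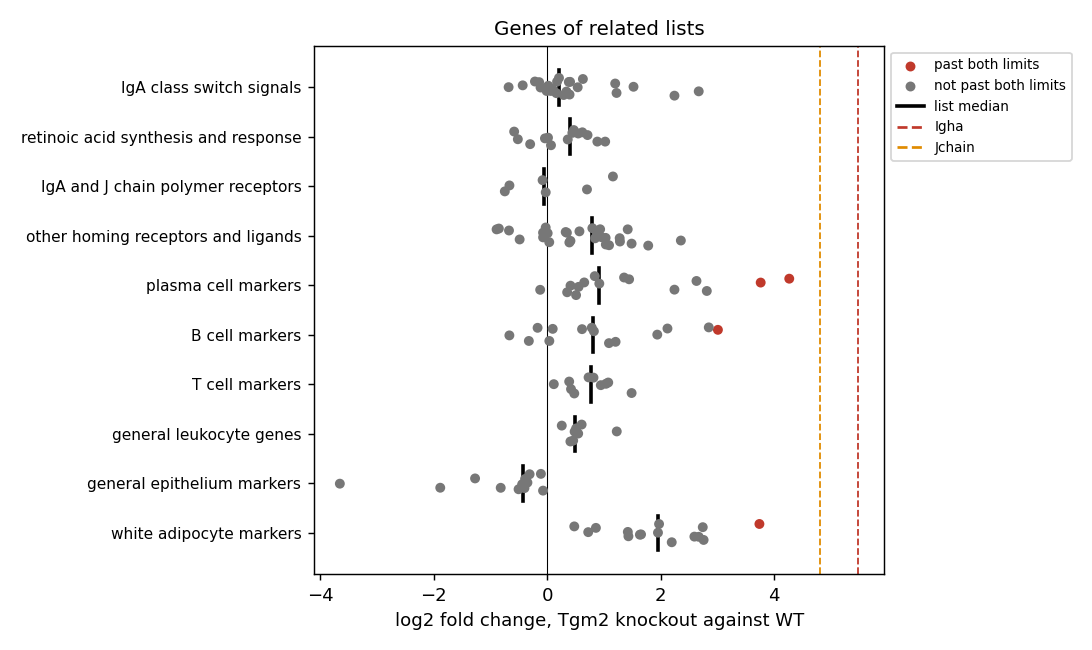
Log2 fold change, knockout against WT, of the genes of 10 pathway or cell type lists, with 1 point per gene, red for genes past both limits, a black line for the list median and broken lines for Igha and Jchain. The white adipocyte list has the median furthest from 0 (1.95), and the plasma cell list holds 2 called genes and a median of 0.92.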

How the data were processed

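Tumors were grouped by their genotype labels, 3 per group, and columns were assigned to tumors by group and replicate number. The authors quantified paired reads with kallisto, summed transcripts to genes through biomaRt, removed genes of low expression and divided by DESeq2 size factors. The submitters' processing notes name kallisto 0.46.2 and GRCm38. The deposited values are labelled TPM but form a signal, that is normalized counts, since the columns sum to between 32316600 and 37717200. Values came out as whole reads for genes of 1 transcript alone (97.1% to 99.2% of low values within 0.1 reads over 4097 genes), which gave the depths, so no count model was fitted. The test planned for TPM values, limma on the log scale, was kept.

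The analysis used R 4.3.3 with limma 3.58.1 and Python 3.11.15. Genes at 1 or more in at least 3 tumors were tested on log2(value + 1), which kept 19667 of 20076, with empirical Bayes moderation, a variance trend and Benjamini-Hochberg adjustment. Fold changes are on that log scale, and those of low genes are understated. Shares and ratios were compared by exact two-sided permutation over tumors. GENCODE M21 gave positions and exon lengths for 19037 genes, matched by symbol. The script was tested on simulated data. Alternatives were the pseudocount, the filter, the variance trend, scaling, array weights, the replicate block, adipocyte and epithelial covariates, and leaving out each tumor.

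Genes named were the 9 members, *Tgm2*, the heavy chain constant genes, called or abundant genes of each list with textbook partners of a member, and for *Igha*, *Jchain* and *Pigr* the 3 nearest profiles, and 2 genes that this rule names are not reported here. Members and lists were chosen with earlier results of these data known, and further names (such as *Epcam*, *Ltf*, *Il21*, *Foxj1*) after their values were seen. Tumors were taken as replicates from the labels, so p-values measure the spread between these tumors.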

Additional observations from a re-analysis of the deposited data

How the results depend on the processing

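Over the 17 alternative settings, the called higher genes numbered 20 as reported, 4 without a variance trend and 0 with the adipocyte covariate in limma, where 897 were higher and 1051 lower at an unadjusted p below 0.05. Leaving out a tumor gave 2 to 14 genes: 7 without WT tumor 1 (and 1 lower), 2 without WT tumor 2, 13 without WT tumor 3, 11 without knockout tumor 1 or 2 and 14 without knockout tumor 3. Of the 9 members, 2 were called as reported, 1 to 2 on leaving out a tumor (1 without WT tumor 2) and 0 with the adipocyte covariate, where 2 were higher at an unadjusted p below 0.05. With that covariate *Igha* had a log2 fold change of 5.38 and *Jchain* 4.21, and on leaving out a tumor *Igha* ran from 5.17 to 5.65. *Pigr* reversed to 0.19 with the epithelial covariate, which was chosen after seeing the data, and ran from -4.12 to 0.70 on leaving out a tumor. *Ccr9* reversed to 0.10 with array weights, to 0.23 without WT tumor 3 and to 0.25 without knockout tumor 1, and ran from -0.35 to 0.25 on leaving out a tumor. The shares and ratios of *Igha* kept their direction in every setting run. The cause of these changes was not tested.

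Deviations of tumors with the same replicate number correlated at -0.20, 0.28 and -0.31, and not every tumor was nearest to its own number. These correlations, taken around the means of groups of 3, cannot show whether the numbers paired the tumors. With the replicate block, 5 genes were called higher, and both *Igha* and *Jchain* were among the called members. With 3 tumors per group, a difference of the size of that of *Ccr10* did not pass the adjusted test, and values under about 10 rest on a few reads.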

Other observations

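Knockout tumor 1 differed from the other knockout tumors in *Ighe*, *Ighg1* and *Nos2*. *Ighe*, the constant gene of IgE, was at 138 normalized counts in this tumor, at 2.00 and 2.04 in the other knockout tumors and at 0, 0 and 3.10 in the WT tumors. *Ighg1* was at 43621 there and at 12130 and 6936 in the other knockout tumors, and at 161, 115 and 806 in the WT tumors. *Nos2* was at 593 there, against 163 and 146 in the other knockout tumors and 129, 98.1 and 46.1 in the WT tumors. These genes were chosen after their values were seen, and the differences within the group were not tested.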
